A study of Mus musculus with 7 samples.

Results

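The Slit and Robo axon guidance genes were described here by their H3K4me1 fragments in mouse zygotes. They are 7 of the 49943 genes that RefSeq places on chromosomes 1 to 19, X and Y, and were taken by name and chosen by their pooled fragment levels: the ligand genes Slit1, Slit2 and Slit3 and the receptor genes Robo1, Robo2, Robo3 and Robo4. Slit3 drew attention because 3 adjoining bins of 10 kb inside it carried many fragments, so the levels of whole genes and of their bins are given as a description, with no test.

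SLIT proteins are large secreted ligands with leucine-rich and EGF-like repeats, and ROBO proteins are their receptors of the immunoglobulin superfamily. In the embryonic spinal cord, SLIT from the midline repels axons that carry ROBO1 and ROBO2, which keeps axons from crossing again. The same pairs act outside the nervous system, in kidney, lung, heart and mammary gland. H3K4me1, monomethylation of lysine 4 of histone H3, is best known from enhancers and from the flanks of active promoters. CUT&Tag places the transposase Tn5 at a mark through an antibody, so that sequenced fragments come from marked chromatin.

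The series held 7 samples, of which both H3K4me1 batches entered here, and each batch came from the zygotes of 1 mouse. Superovulation used PMSG at 5 IU and, after an interval of 46 to 48 h, hCG at 5 IU. Zygotes were taken at 23 post-hCG, a time whose unit the labels omit. The labels of the H3K4me1 samples give treatment as no and state neither the strain nor the age of the parents. H3K27me3 and transcriptome data of the same series were not used here.

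Both batches were deposited in 1 table, and the numbers 4 and 5 in the library names are tied to no batch by the labels, so the table counts as 1 sample with no replicate. In all, 14 zygote libraries had at least 5000 fragments, 11 named 5 and 3 named 4, with 7106 to 197312 fragments each and 1404305 together. The level of a gene or bin is its number of fragments per bp divided by the average per bp over the autosomes, which was 5.62 fragments per 10 kb. Intervals are exact 95% Poisson intervals for levels and exact conditional binomial intervals for ratios, and cover counting error only. No background library was used, so unspecific tagging is contained in every level to an extent that was not measured. As a description of the pool, 12 oocyte genes had a median level of 1.87, with 6 intervals above 1 and 0 below. The 13 genes of cumulus and granulosa cells had a median of 0.880, with 4 above and 2 below. These lists differ in gene length, with 0 and 2 genes of 100 kb or longer. Over all autosomal protein-coding genes the median was 1.21, with 29.5% above and 7.17% below. Levels of a mark do not identify cells.

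MicroRNA genes lie inside Slit2 and Slit3, and their sequences are shown first because the enriched stretch of Slit3 covers one of them. Mir218-2 lies in Slit3 at chr11:35616816-35616925 and Mir218-1 in Slit2 at chr5:48223942-48224051, both on the plus strand of GRCm38.p6, the assembly of mm10. miR-218 is known to act on messages of Robo1 and Robo2, the receptors of its hosts' products. The RefSeq hairpins follow, with both mature arms in capitals.
Mir218-2 hairpin: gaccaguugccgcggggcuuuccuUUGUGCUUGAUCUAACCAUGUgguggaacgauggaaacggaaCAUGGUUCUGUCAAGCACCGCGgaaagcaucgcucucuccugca
Mir218-1 hairpin: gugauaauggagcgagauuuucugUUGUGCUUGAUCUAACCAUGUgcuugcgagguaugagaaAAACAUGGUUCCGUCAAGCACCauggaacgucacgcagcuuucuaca

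The 5p arm had the same letters at both genes, and the 3p arms differed in their seeds. In the mature sequences below, the seed (bases 2 to 8) is in capitals.
miR-218-5p of both genes: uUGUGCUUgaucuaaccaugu
miR-218-2-3p of Mir218-2: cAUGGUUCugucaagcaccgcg
miR-218-1-3p of Mir218-1: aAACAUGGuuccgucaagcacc

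Among the long genes of the family, Slit1 and Slit3 carried H3K4me1 fragments at close to 1.9 times the autosomal average, while Slit2, Robo1 and Robo2 lay below that average. The intervals of 4 genes lay above 1 (Slit1, Slit3, Robo3, Robo4) and those of 3 lay below 1 (Slit2, Robo1, Robo2). The background over all 20665 autosomal protein-coding genes was 29.5% with an interval above 1 and 7.17% with one below 1. Of the 2313 such genes of 100 kb or longer, in which intervals are narrower, 42.1% lay above and 19.5% below. Of the 5 members of that length, 2 lay above and 3 below. These levels took part in the choice of the genes, and nothing is read from the counts.

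**Figure D1:**
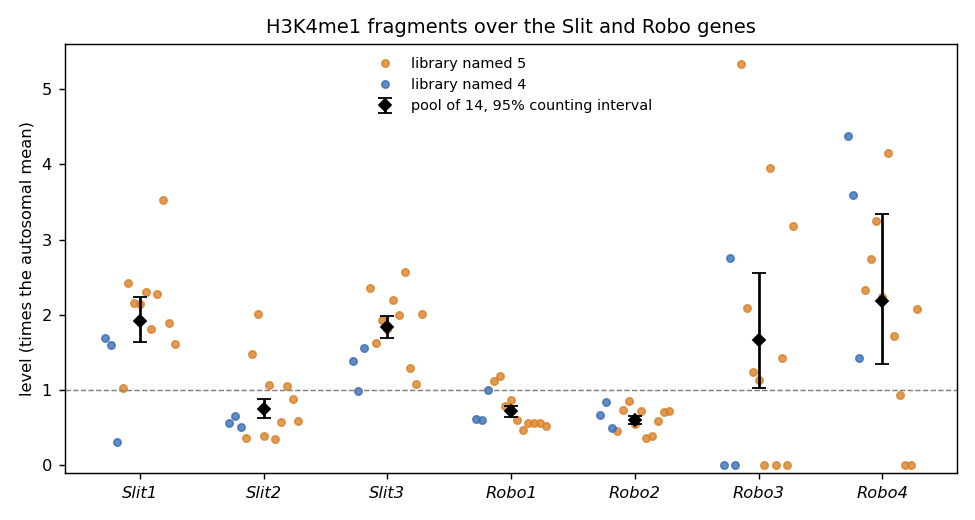
Level of H3K4me1 fragments, in multiples of the autosomal average, over each gene with 2.5 kb on each side. Circles are the 13 zygote libraries with at least 20000 fragments, orange for those named 5 and blue for those named 4, and black diamonds are the pool of 14 libraries with 95% counting intervals. Slit1 and Slit3 sit above 1 in 12 of 13 libraries each, Robo2 sits below 1 in all 13, and Robo3 and Robo4 scatter widely on few fragments.

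Slit1, a ligand gene of 149 kb on chromosome 19 (41597824 to 41747275), had 167 fragments and a level of 1.92 (1.64 to 2.24). In the 13 libraries with at least 20000 fragments its level ran from 0.316 in library 4-5 through a median of 1.89 to 3.52 in library 5-8. All but library 4-5 had a level above 1. Of the 2313 protein-coding genes of 100 kb or longer, 95.4% had a lower level than Slit1.

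Slit3, the longest of the ligand genes at 587 kb, lies on chromosome 11 (35121456 to 35708507) and had 612 fragments and a level of 1.84 (1.70 to 1.99). Its libraries ran from 0.988 in library 4-4 through a median of 1.81 to 2.57 in library 5-7. All but library 4-4 were above 1. Slit3 exceeded 93.9% of genes of 100 kb or longer and 96.5% of the 945 genes of 200 kb or longer. The level of Slit1 over that of Slit3 was 1.05 (0.876 to 1.24), so these neighbours in the order did not differ beyond counting error.

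Slit2, the ligand gene whose loss disturbs axon crossing and kidney budding in mice, spans 326 kb of chromosome 5 (47981291 to 48307735). It had 140 fragments and a level of 0.752 (0.632 to 0.887), higher than 14.4% of genes of 100 kb or longer. The 13 libraries ran from 0.356 through a median of 0.591 to 2.02, and 9 of them lay below 1. Its ratio to Robo1, next in the order, was 1.05 (0.859 to 1.27). Slit3 stood apart from it: the level of Slit2 over that of Slit3 was 0.409 (0.338 to 0.492), and Slit2 was the higher in 1 of 13 libraries.

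Levels at Slit2 varied between libraries, and the libraries given here were picked after their values were seen. Library 5-3 had 24 fragments there and a level of 2.02 (1.29 to 3.00). Library 5-2 had 21 fragments and 1.49 (0.919 to 2.27). At the other end, library 5-6 had 8 fragments and 0.356 (0.154 to 0.702), and the deepest library, 5-4, had 10 fragments and 0.385 (0.185 to 0.709). The interval of library 5-3 thus overlapped neither of the last pair. These intervals cover counting error only, and how often other genes hold such a pair was not counted. Its 24 fragments fell in 12 bins of 10 kb, with 7 in a single bin and up to 4 over the same base. With at most 1 fragment per step of 500 bp, its level was 1.70 (1.03 to 2.66), against 0.414 (0.198 to 0.761) in library 5-4. The part of stacked fragments in this spread was not tested beyond this count.

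The receptor genes Robo1 and Robo2 are neighbours on chromosome 16, 844 kb apart. Robo1, the receptor through which SLIT2 repels commissural axons, spans 1020 kb (72027518 to 73047491) and had 413 fragments and a level of 0.717 (0.649 to 0.789). Library levels ran from 0.475 in library 5-6 through a median of 0.601 to 1.19 in library 5-2. Robo2, known for its part in kidney development beside its part in axon guidance, spans 1555 kb (73891976 to 75447443) and had 529 fragments and a level of 0.603 (0.553 to 0.657), the lowest of the family. All 13 libraries were below 1 there, with 0.369 in library 5-6 as the lowest, 0.672 as the median and 0.857 in library 5-3 as the highest. Robo1 over Robo2 gave 1.19 (1.04 to 1.35), yet Robo1 was the higher in 6 of 13 libraries.

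Slit3 exceeded both long receptor genes in all 13 libraries. Its ratio was 2.57 (2.26 to 2.91) to Robo1 and 3.05 (2.71 to 3.43) to Robo2. Slit1 and Slit3 together stood above Slit2, Robo1 and Robo2 in 10 of 13 libraries.

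Robo3 and Robo4 lie side by side on chromosome 9, separated by 2021 bp. ROBO3 of mammals differs from the other receptors in that it responds to NELL2 and counters repulsion in axons before they cross, and ROBO4 is a short receptor of blood vessel endothelium. Robo4 (37401902 to 37414023, 12.1 kb) had 21 fragments from 11 libraries and a level of 2.18 (1.35 to 3.34), the highest pooled value of the family, and its libraries ran from 0 through a median of 2.24 to 4.37. Robo3 (37416045 to 37433436, 17.4 kb) also had 21 fragments, from 8 libraries, and a level of 1.67 (1.03 to 2.55), with libraries from 0 through a median of 1.24 to 5.34. In the libraries named 4 alone, Robo3 had 2 fragments and a level of 0.892 (0.108 to 3.22). The windows of Robo3 and Robo4 share 2979 bp and 8 fragments, so the values are not separate measurements. Taken as one region, both genes had 34 fragments and a level of 1.66 (1.15 to 2.31). At this depth their ratio, 0.765 (0.397 to 1.47) for Robo3 over Robo4, held 1, and so did the ratios of both to Slit1 and Slit3.

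**Figure D2:**
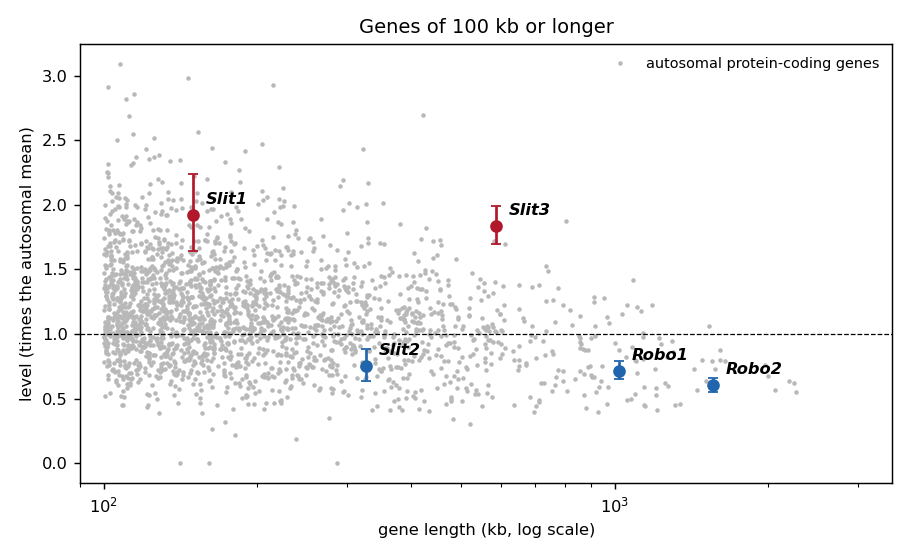
Level of H3K4me1 fragments (multiples of the autosomal average) against gene length (kb, log scale) for the 2313 autosomal protein-coding genes of 100 kb or longer, in grey. The 5 long members are drawn with 95% counting intervals, red above 1 and blue below. Slit3 lies near the upper edge of genes of its length, Slit1 in the upper part, and Slit2, Robo1 and Robo2 lie in the lower part.

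Among the long members, Slit3 had the highest ratio to the DNA around it, with an interval that overlapped those of Slit1, Slit2 and Robo1. Its level includes the enriched stretch for which it was chosen. Within 500 kb on each side of Slit3, outside its window, the level was 1.27 (1.18 to 1.37) with 7 other protein-coding genes, and Slit3 lay 1.44 times (1.29 to 1.61) above it. Chromosome 11, the highest autosome, had a level of 1.21. For Slit1 the surroundings had 1.68 (1.58 to 1.79) with 24 other protein-coding genes, and the ratio of gene to surroundings was 1.14 (0.964 to 1.35).

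The surroundings of Slit2, Robo1 and Robo2 had levels below 1. The 500 kb on each side of Slit2 held 2 other protein-coding genes and had a level of 0.689 (0.622 to 0.761), which Slit2 exceeded 1.09 times (0.893 to 1.33). Around Robo1 there was 0 other protein-coding gene and a level of 0.576 (0.515 to 0.643), and the ratio of Robo1 to it was 1.24 (1.07 to 1.44). Around Robo2 there were 4 other protein-coding genes and a level of 0.571 (0.510 to 0.637), and the ratio was 1.06 (0.918 to 1.22). The sequence between Robo1 and Robo2, part of which counts in both surroundings, had a level of 0.598 (0.530 to 0.672). Robo4 lay 1.85 times (1.14 to 2.85) above its surroundings and Robo3 1.41 times (0.865 to 2.17).

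Fragments were spread along all 5 long genes, and the median over bins of 10 kb lay above 1 in Slit1 and Slit3 and below 1 in Slit2, Robo1 and Robo2. In Slit3 the 59 bins had a median level of 1.78, from 0.356 to 3.91, and the intervals of 20 bins lay above 1 and of 0 below. Among all 240327 autosomal bins the median was 0.890, with 7.91% above 1 and 11.6% below. Slit1 had 6 of 16 bins above 1 and 0 below, around a median of 1.96. With 5.62 fragments expected, a bin needed at least 12 fragments for an interval above 1 and at most 1 for an interval below.

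The bins of Slit2, Robo1 and Robo2 had medians below 1, and each gene also held 1 bin with an interval above 1. Slit2 had a median of 0.712 over 33 bins, with 2 intervals below 1. Over all autosomal bins the median was 0.890 and the share below 1 was 11.6%, more than the 6.06% of Slit2. In Robo1 15 of 103 bins lay below, around a median of 0.712, and 4 bins held 0 fragments. In Robo2 25 of 156 bins lay below, around a median of 0.534, and 8 bins held 0. Cut into 3 equal parts from the upstream end of the annotated gene, Robo2 had levels of 0.580, 0.662 and 0.570, and Robo1 had 0.618, 0.769 and 0.759. Slit3 had 1.88 (1.63 to 2.16), 1.41 (1.20 to 1.65) and 2.25 (1.97 to 2.54). Its middle part was the lowest, with an interval that overlapped that of the first part. The last part contains the enriched stretch for which Slit3 was chosen, so nothing is read from its level.

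**Figure D3:**
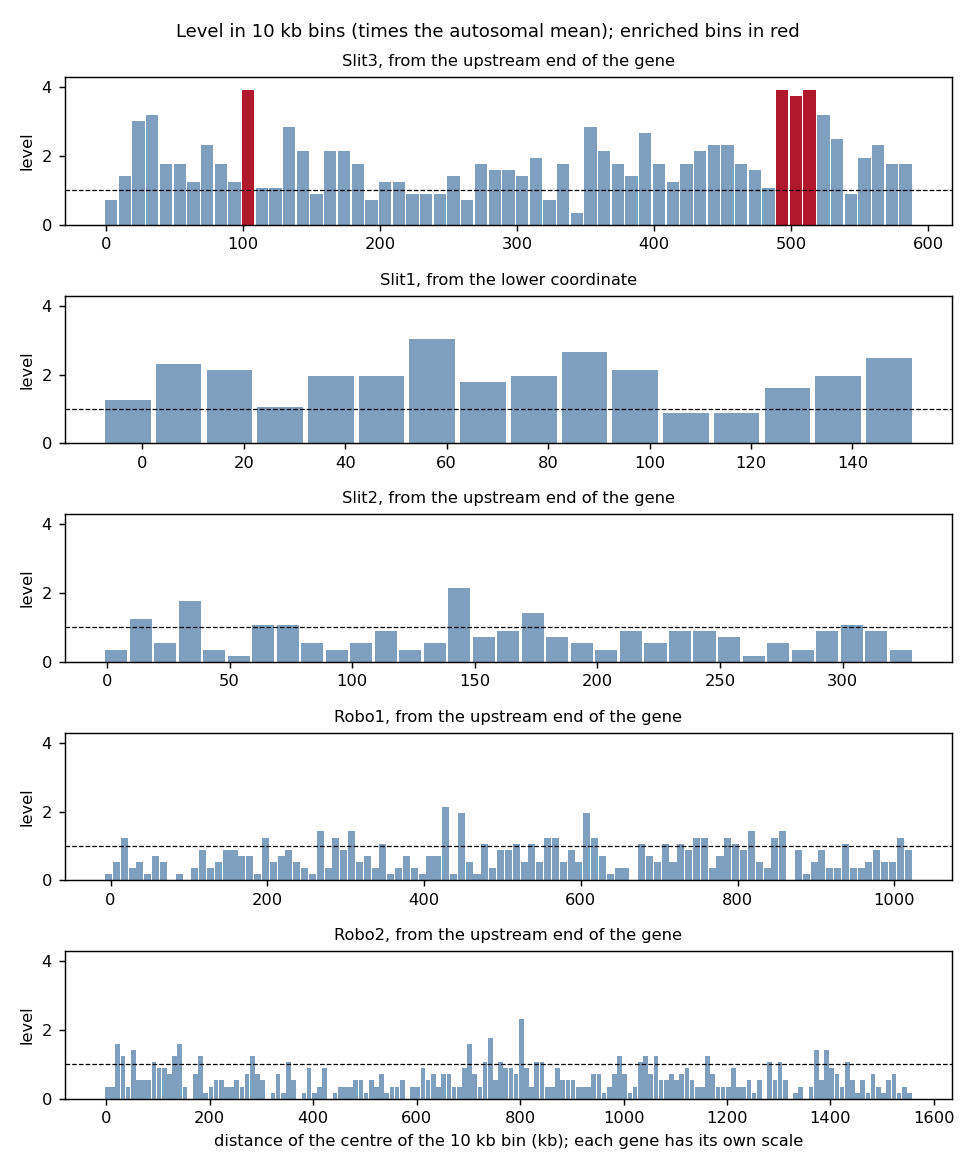
Level in each 10 kb bin, in multiples of the autosomal average, along the 5 long genes. The x axis is the distance in kb from the upstream end of the gene, or for Slit1 from its lower coordinate, and each gene has its own scale. Red bars are the 4 enriched bins, all in Slit3, with 3 of them adjoining toward the downstream end, and most bars of Slit2, Robo1 and Robo2 stay below the dashed line at 1.

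Bins were called enriched at 3 times the autosomal average or above, given 20 fragments and 5 libraries as minimum. Since 20 fragments give a level of 3.56, the number of fragments set the limit in this pool. Among autosomal bins 0.518% were enriched, and among bins of protein-coding genes of 100 kb or longer 0.449% were. Slit3 held 4 of them and the other 6 genes 0. Just inside the limit lay a bin of Slit3 with 21 fragments and a level of 3.74, and just outside lay 2 bins of Slit3 with 18 fragments and a level of 3.20. One of those just outside adjoined the 3 neighbouring enriched bins on their downstream side. The count of 4 rests on single libraries: it was 0 without library 5-6, 1 without 5-7, and 2 without 5-4 or without 5-10.

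The enriched stretch of Slit3 ran over 30 kb at chr11:35610001-35640000, from 489 kb after the start of the gene to 68.5 kb before its end. It held 65 fragments from 13 libraries, at a level of 3.85 (2.98 to 4.91), with 22, 21 and 22 fragments in its bins. The rest of Slit3 had 547 fragments and a level of 1.73 (1.59 to 1.88), and the ratio of the stretch to it was 2.23 (1.69 to 2.88). The stretch was picked as the longest run of enriched bins in Slit3, which its intervals make no allowance for. It covers 5.11% of the length of Slit3 and held 10.6% of the fragments. Without the stretch Slit3 thus kept a level above those of Slit2, Robo1 and Robo2.

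The stretch was higher than the rest of Slit3 in 12 of the 13 libraries with at least 20000 fragments. Its bins were called on the pool of these same libraries, so an excess in most of them was largely fixed in advance. Levels in the stretch ran from 1.25 in library 4-2, on 1 fragment, through a median of 3.99 to 5.86 in library 5-7, on 11 fragments. In 6 of the 13 the interval lay above 1. Over any base of it, a single library contributed at most 2 fragments. Library 5-11, the shallowest, had 0 fragments in the stretch, where the limit set by a count of 0 is a level of 35.5, and also 0 in the rest of Slit3.

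**Figure D4:**
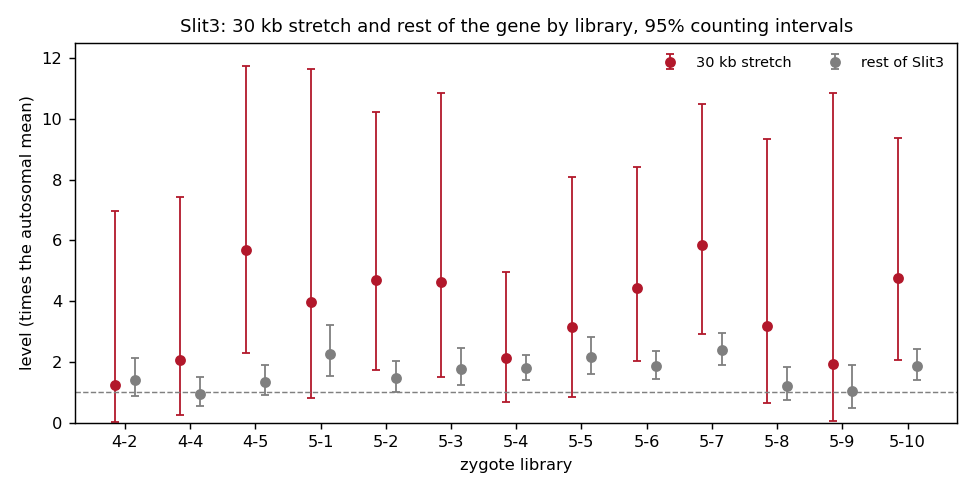
Level of the 30 kb stretch of Slit3 (red) and of the rest of Slit3 (grey) in the 13 zygote libraries with at least 20000 fragments, in multiples of the autosomal average, with 95% counting intervals. The red point lies above the grey one in every library but 4-2, and the intervals of the stretch are wide since it held 1 to 11 fragments per library. The stretch was called on a pool that includes these libraries.

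Among the 945 autosomal protein-coding genes of 200 kb or longer, 1 held 3 adjoining enriched bins, which is 0.106%, and that gene was Slit3 itself. Slit3 was chosen for these bins, so this share and its rank below restate the choice, and nothing is read from them. Without library 5-6, 5-7, 5-4 or 5-10, Slit3 held at most 2 enriched bins. At least 1 enriched bin was found in 9.31% of them. Ranked by the highest window of 3 adjoining bins, with a median of 1.66 over these genes, Slit3 came second behind Pde7b, named here after its value was seen, with 9.67. Among the highest windows nearest to that of Slit3 were those of the phosphodiesterase gene Pde1c with 3.74 (2.87 to 4.78), the focal adhesion gene Tns1 with 3.74 (2.87 to 4.78), the histone deacetylase gene Hdac4 with 3.68 (2.82 to 4.71) and Igsf21 with 3.50 (2.66 to 4.51). The intervals of these 4 overlapped that of Slit3.

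Within those genes the contrast to the rest of the gene varied. The highest window lay 4.26 times above the rest in Pde1c and 1.31 times above it in Tns1, whose whole-gene level was 2.93. The highest windows of the other long members were 1.42 (0.912 to 2.12) in Robo1, 1.30 (0.818 to 1.98) in Robo2 and 1.25 (0.771 to 1.90) in Slit2, and all 3 intervals held 1. The window is picked as the best of many, and its ratio to the rest of the gene had a median of 1.77 over the 945 genes. The ratio of Slit3 counted this way was 2.20, which 13.1% of genes reached, whereas 0.212% reached the level of its window, Slit3 included. Slit3 was chosen for that window, so its level is given as a description.

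The hairpin of Mir218-2 lies in the first bin of the stretch, 6.82 kb after its start, but the step of 5 kb centred on the hairpin was not the highest. This window, 2.5 kb on each side, held 6 fragments at a level of 2.13 (0.783 to 4.65). The step 5 kb before it had 16 fragments and 5.69 (3.25 to 9.25), and the step 15 kb after it also had 16. With 25 kb on each side the level around Mir218-2 was 2.99 (2.38 to 3.70) from 84 fragments, against 0.640 (0.380 to 1.01) from 18 fragments around Mir218-1. At 2.5 kb on each side Mir218-1 had 2 fragments and a level of 0.712 (0.0862 to 2.57), and the intervals of both genes overlapped. The wider window around Mir218-2 contains the whole enriched stretch, for which Slit3 was chosen, so its level is a description and nothing is read from the difference.

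**Figure D5:**
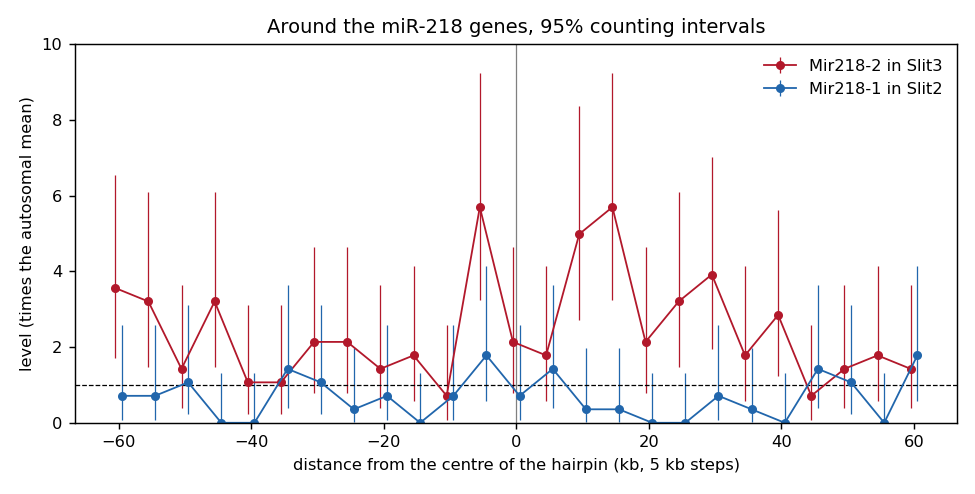
Level of H3K4me1 fragments, in multiples of the autosomal average, in 5 kb steps by distance from the centre of the hairpins Mir218-2 in Slit3 (red) and Mir218-1 in Slit2 (blue), with 95% counting intervals. Red steps reach 5.69 at 5 kb before and 15 kb after the hairpin, and blue steps stay at or below 1.78.

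Besides Mir218-2, 5 annotated genes overlap Slit3. The other enriched bin of Slit3, from 35220001 to 35230000 with 22 fragments and a level of 3.91 (2.45 to 5.93), overlaps the lncRNA gene Gm33453 (35216736 to 35226199), whose own window had 2.71 (1.70 to 4.10). The lncRNA genes Gm46278, Gm39705 and Gm46277 inside Slit3 had 1.77 (1.19 to 2.53), 1.47 (0.634 to 2.90) and 1.44 (1.03 to 1.97). In the 30 kb stretch Mir218-2 was the only annotated gene other than Slit3. Exons and introns were not used here.

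Annotated transcription starts of the members held 1 to 9 fragments each. RefSeq promoters were matched for 6 of the 7 genes, with 8 starts in all. In windows of 2.5 kb on each side, the interval of 1 start lay above 1, that of Robo4 with 9 fragments and a level of 3.20 (1.46 to 6.08), beside 11.4% of 31396 autosomal starts. Slit3, Slit2 and Robo3 had 2 fragments each, at a level of 0.712 (0.0862 to 2.57). Within 10 kb on each side of its start Slit3 had 15 fragments and a level of 1.33 (0.747 to 2.20), and both intervals hold its whole-gene level. Robo2 has 3 starts in the table, and from the most upstream one they held 1, 3 and 3 fragments. The Robo1 start, 636 kb inside the annotated gene, held 1. The median over all starts was 3 fragments, and an interval above 1 needed 7.

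The promoters printed are those of the miR-218 hosts and of Robo4, because the start with the highest level had the fewest CpG sites. Each is the 250 bases before the start in RefSeq for GRCm38.p6, on the plus strand, with every CG in capitals. Slit3 (chr11:35121206-35121455) holds 35 CG, Slit2 (chr5:47982905-47983154) holds 25 and Robo4 (chr9:37401722-37401971) holds 2, with a median of 6 over 32851 promoters.
Slit3 promoter: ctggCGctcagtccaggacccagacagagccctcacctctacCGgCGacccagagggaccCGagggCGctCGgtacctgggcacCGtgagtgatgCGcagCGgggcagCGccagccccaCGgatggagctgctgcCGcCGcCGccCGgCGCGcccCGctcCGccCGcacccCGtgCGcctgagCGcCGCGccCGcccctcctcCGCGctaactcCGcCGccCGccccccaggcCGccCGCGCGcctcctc
Slit2 promoter: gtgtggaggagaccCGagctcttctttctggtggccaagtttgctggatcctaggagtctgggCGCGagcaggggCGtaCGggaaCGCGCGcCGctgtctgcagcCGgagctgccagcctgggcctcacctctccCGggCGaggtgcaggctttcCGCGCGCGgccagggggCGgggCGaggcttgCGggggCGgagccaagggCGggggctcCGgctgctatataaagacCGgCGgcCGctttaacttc
Robo4 promoter: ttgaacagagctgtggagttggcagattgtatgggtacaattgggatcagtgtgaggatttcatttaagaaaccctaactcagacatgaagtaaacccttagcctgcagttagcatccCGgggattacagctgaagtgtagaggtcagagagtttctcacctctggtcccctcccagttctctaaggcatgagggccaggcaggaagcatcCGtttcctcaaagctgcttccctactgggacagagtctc

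Of all promoters, 97.0% held fewer CG than Slit3, 89.3% fewer than Slit2 and 18.8% fewer than Robo4. Robo1 held 11 and Robo3 12, and the Robo2 starts held 8, 4 and 14 from the most upstream one on. GC content ran from 44.8% at the middle start of Robo2 to 78.8% at Slit3. With 8 starts and 1 to 9 fragments each, no relation of the level to CG was computed.

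The pooled levels of Slit1 and Slit3 were higher in the libraries named 5 than in those named 4. Whether the intervals overlapped turned on single libraries, in 6 of 14 omissions for Slit1 and in 1 of 14 for Slit3. Slit1 had 2.10 (1.78 to 2.47) in the 11 libraries named 5 and 1.10 (0.640 to 1.76) in the 3 named 4. Slit3 had 1.95 (1.79 to 2.12) in those named 5 and 1.33 (1.05 to 1.66) in those named 4. The intervals do not overlap with all libraries in. For Slit1 they overlap without library 4-5, where those named 4 have 1.64 (0.918 to 2.71), and also without 5-2, 5-4, 5-5, 5-7 or 5-8, where the lowest level of those named 5 is 2.00 (1.67 to 2.37), without 5-8. For Slit3 they overlap without library 4-4, where the interval of those named 4 is 1.14 to 1.93, and in none of the other 13 cases. Leaving out libraries here was added after the data were seen. Among genes of 100 kb or longer, 4.89% had an interval in the libraries named 5 wholly above that in those named 4, and 2.33% wholly below. The median level of genes of that length was itself higher in the libraries named 5, with 1.14 against 1.02.

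In the surroundings of both genes the intervals overlapped. Around Slit1 the libraries named 5 had 1.68 (1.57 to 1.80), and those named 4 had 1.69 (1.44 to 1.96). Around Slit3 the libraries named 5 had 1.25 (1.15 to 1.35), and those named 4 had 1.40 (1.18 to 1.65). The stretch of Slit3 had a level of 3.97 (2.99 to 5.17) with the name 5 and of 3.33 (1.60 to 6.12) with the name 4. Both intervals lay above 1, which the choice of the stretch from the pool of both favours. Slit2, Robo1 and Robo2 had 0.790, 0.706 and 0.591 in libraries named 5, and 0.572, 0.769 and 0.659 in those named 4, with intervals below 1 in both. What the numbers 4 and 5 stand for is not given, and their part in these differences was not tested.

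Genes of the wider pathway ran from 0.391 to 2.54. Of 32 genes that act with or downstream of SLIT and ROBO, 15 had an interval above 1 and 4 below, with a median of 1.30, beside 29.5% above and 7.17% below and a median of 1.21 over all autosomal protein-coding genes. Of the 12 pathway genes of 100 kb or longer, 6 lay above and 3 below, around a median of 1.19. Over all genes of that length 42.1% lay above and 19.5% below. Among those with at least 20 expected fragments, the highest was Plxna1, a plexin that binds a cleaved end of SLIT, with 2.18 (1.68 to 2.80). Next came the Robo-binding GTPase activator gene Srgap3 with 1.76 (1.54 to 2.00), and Dag1, which encodes the SLIT-binding dystroglycan, with 1.69 (1.29 to 2.17). The lowest were the netrin receptor gene Dcc with 0.539 (0.483 to 0.600), the adaptor gene Nck1 with 0.626 (0.382 to 0.967) and the small GTPase gene Cdc42 with 0.702 (0.409 to 1.12).

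Genes of other axon guidance families ran from 0.388 to 3.70. The 53 listed genes are those for netrins, Sema3 semaphorins and ephrins, for netrin, semaphorin and ephrin receptors, and Draxin, Rgma, Rgmb, Dscam and Dscaml1. Plxna3, Plxnb3 and Efnb1 lie on the X chromosome and the others on autosomes. Of all 53, 28 had an interval above 1 and 9 below, around a median of 1.42. These shares of 52.8% and 17.0% stand beside 29.5% and 7.17% over all autosomal protein-coding genes. The 24 listed genes of 100 kb or longer split into 9 above and 9 below, around a median of 0.976. Over all genes of that length the shares were 42.1% and 19.5%. Among the 31 genes with at least 20 expected fragments, Ephb2 led with 2.41 (2.13 to 2.72), followed by the netrin receptor gene Unc5a with 2.30 (1.83 to 2.84) and the ligand gene Ntn1 with 2.10 (1.83 to 2.40). At the low end stood Sema3c with 0.388 (0.270 to 0.540), Epha5 with 0.411 (0.328 to 0.508) and Sema3d with 0.422 (0.313 to 0.556). Slit1 and Slit3 lay below Ephb2, Unc5a and Ntn1 in level, and Robo2 lay above those 3 lowest genes. The interval of Slit1 overlapped those of Ephb2, Unc5a and Ntn1, and that of Slit3 those of Unc5a and Ntn1. The interval of Robo2 overlapped that of Sema3d.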

How the data were processed

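The authors deposited 1 table of H3K4me1 CUT&Tag fragments, with a position, a library name and a count of 1 in each of its 1424363 lines. A region's count is the number of its lines. The genome build mm10 is given per the submitters' processing notes; for the aligner, duplicates, filters and shift of cut sites, tools are not given in the sources used. A fragment was placed by its midpoint and libraries needed 5000 fragments over autosomes, X and Y. Genes and sequences came from RefSeq for GRCm38.p6, matched by symbol, with 2.5 kb added on each side of a gene. Chromosome lengths ran from the first to the last fragment. Starts and strands came from the RefSeq promoter table. Python 3.11.15, NumPy 2.4.6, pandas 2.3.3, SciPy 1.17.1 and Matplotlib 3.10.9 were used, and the counting was tested on simulated data. PCR copies carry no molecular identifiers here, so intervals and limits, with 3 fragments as the limit for a count of 0, cover counting error only. The members and gene lists were chosen with earlier results of these data known. Genes named outside the family were the 3 highest and 3 lowest of each list with at least 20 expected fragments, the 5 long genes nearest to Slit3 in their highest 30 kb window, of which 1 is not reported here, and genes inside or next to members. Alternatives changed the flank, placement, library minimum, weighting, scale, stacking, bin grid and bin limit, and left out single libraries.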

Additional observations from a re-analysis of the deposited data

How the results depend on the processing

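No paired analysis was possible because both batches share 1 table whose libraries carry no batch. Over the 26 alternative settings run for gene levels, Slit1, Slit3 and Robo4 kept levels above 1 and Slit2, Robo1 and Robo2 below 1, while Robo3 came to 0.892 in the libraries named 4 alone. In those libraries, Slit1 had 1.10, Slit3 1.33, Slit2 0.572 and Robo2 0.659. With libraries weighted equally, Slit3 had 1.63 and Robo2 0.711, and on the scale of its own chromosome Slit3 had 1.52. All other level and ratio values stayed inside their counting intervals. Leaving out 1 library moved Slit1 between 1.83 and 2.05, Slit2 between 0.665 and 0.811, Slit3 between 1.75 and 1.89, Robo1 between 0.678 and 0.750, Robo2 between 0.586 and 0.635, Robo3 between 1.36 and 1.88, Robo4 between 2.02 and 2.34, the Slit3 stretch between 3.60 and 4.13 and its ratio to the rest of Slit3 between 2.11 and 2.40.

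The 4 enriched bins of Slit3 depend on depth. Leaving out 1 library gave 0 to 4 bins: 0 without library 5-6, 1 without 5-7, and 2 without 5-4 or 5-10. The libraries named 5 alone gave 2, bins shifted by 5 kb gave 2, and a limit of 4 times the average gave 0. The libraries named 4 alone, being 3, cannot meet the need for 5 libraries. Each bin held at most 22 fragments against the 20 required, so few fragments separate a called bin from an uncalled one. Robo3, Robo4 and the start windows are limited by depth, with 21 fragments or fewer each.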

Other observations

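The median fragment length was 301.5 bp in Slit3, 341 bp in Slit1, 336 bp in Slit2 and 344 bp in both Robo1 and Robo2, beside 322 bp over the autosomes. Fragments under 150 bp made up 8.66% (exact 95% binomial interval 6.55% to 11.2%) in Slit3 and 6.59% (3.33% to 11.5%) in Slit1. They made up 7.86% (3.99% to 13.6%) in Slit2 and 6.30% (4.15% to 9.09%) in Robo1, beside 8.39% over the autosomes. Robo2 had 5.29% (3.55% to 7.56%), with an interval below the autosomal share. Robo3 had 28.6% (11.3% to 52.2%), an interval above the autosomal share that rests on 6 of 21 fragments. In Robo4 4 of 21 fragments were that short, and in the 30 kb stretch of Slit3 4 of 65. The windows of Robo3 and Robo4 share 8 fragments. How many other genes differ from the autosomal share in this way was not counted, so nothing is read from these 2 intervals of Robo2 and Robo3.

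Genes next to the members had levels of their own. Hepacam, 15.3 kb from Robo4, had 1.91 (1.25 to 2.80), and Arhgap19, 19.3 kb from Slit1, had 1.76 (1.26 to 2.39). Lcor, 1662 bp from Slit1 with a window that overlaps that of Slit1, had 1.07 (0.833 to 1.35). On both sides of Slit3 the nearest protein-coding genes, Spdl1 at 288 kb and Pank3 at 61.0 kb, had 0.905 (0.507 to 1.49) and 0.930 (0.508 to 1.56).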
